A study of Mus musculus with 14 samples.

Results

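The genes described here encode the proteins of the cytosolic ribosome, as measured in mouse tumours grown from LLC1 cells, a line derived from Lewis lung carcinoma. They were chosen by symbol, as Rpl or Rps followed by a number, by a or by p0 to p2. Of 21152 genes, 97 had such a symbol. Leaving out 8 kinases of the Rps6k family and 7 genes that the GENCODE M21 annotation calls pseudogenes left 82. These comprised 46 canonical genes of the large subunit, 31 canonical genes of the small subunit, 4 paralogues (Rpl7l1, Rpl22l1, Rpl36al and Rps27l) and Rps19bp1. Rps19bp1 follows the naming pattern but encodes a protein that binds a ribosomal protein, so it is kept apart from the 77 canonical genes. All 82 lay far enough above the lowest value of the table to be tested.

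The 14 libraries fall into 4 treatment arms. The combination of MYCi975 and TMP195 (Combo) had 3 libraries, and the labels do not state its doses. MYCi975, a compound that inhibits the MYC transcription factor, had 4 libraries at 50 mg/kg, and TMP195, an inhibitor of the class IIa histone deacetylases, had 3 libraries at 50 mg/kg. The DMSO vehicle had 4 libraries, and treatment lasted 16 days in every arm. The series asks which transcriptional changes the compounds induce in vivo. The labels describe both an enriched tumour population and a bulk suspension of tumour cells, and they do not tie libraries to individual mice, so a p-value here reflects library-to-library spread, part of which may be technical.

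Each ribosome is built from a small subunit, which decodes the mRNA, and a large subunit, which joins the amino acids, and each subunit takes up 1 copy of nearly every one of its proteins. Their mRNAs are among the most abundant in growing cells, and most begin with a C followed by a run of pyrimidines, the 5′ terminal oligopyrimidine (TOP) tract, through which mTOR and LARP1 control their translation together with that of several elongation factors. MYC is known to raise the transcription of ribosomal protein genes and of the polymerases that make ribosomal RNA. Free RPL5 and RPL11, which bind the 5S ribosomal RNA, can inhibit MDM2 and so stabilise p53.

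The start of such an mRNA is where the tract would lie, so it is shown for a few members before the values. They were picked as examples with and without a run there, and do not reflect how many members hold it. The capitals mark the unbroken run of C and T that begins with a C at the start annotated by RefSeq (build GRCm38.p6), and 18 of the 30 bases lie before that start. Rps6 (chr4:86857356-86857385, minus strand), Rps18 (chr17:33955654-33955683, minus strand), Rpl38 (chr11:114668562-114668591, plus strand) and Rpl35 (chr2:39005120-39005149, minus strand) hold the run. So does Rack1 (chr11:48800342-48800371, plus strand), a scaffold protein of the small subunit whose symbol does not follow the rule. Rpl5 (chr5:107900510-107900539, plus strand) and Rpl11 (chr4:136053382-136053411, minus strand) have no C at the annotated start.
Rps6: gttaagcggaagtcgggcCTCTTTTTCgtg
Rps18: ttatacgtcacttccgctCTCTCTTCCaca
Rpl38: ggaagcggaagcctcgttCTTTCCCCgttc
Rpl35: agtcggccccgccctttcCTCTTTCTCTCg
Rack1: cggcggaggccgctctttCTTTTTCTCCac
Rpl5: ctttctcacgtcgcttgcgtgctggtggtg
Rpl11: ctcctgacccataaggccacggggccggaa
A RefSeq start was matched by symbol for 57 of the 77 canonical members, and 13 of these (22.8%) had a run of at least 5 such bases on the coding strand. Among 26968 other genes with a start, 800 (2.97%) had one. In the list of translation factors the run stood at the start of 3 of 22 genes (13.6%). An annotated start can lie some bases from the start that a tissue uses, and no match says only that these letters are not at this place.

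The authors' values are on a log2 scale reached by variance stabilisation, on which a difference of 1 is close to a 2-fold change for well-expressed genes. The lowest value of the table, 4.047, stands for no reads. Read counts could not be recovered, so the depth of the libraries is unknown. Across libraries the canonical members lay between 6.67 (Rpl37) and 14.76 (Rpl13a). Many ribosomal protein genes have near-identical processed copies elsewhere in the genome, so the level of a single gene is uncertain where the authors' quantification split shared reads. As a check on the labelled tissue, the keratins Krt8 (7.86 to 8.65) and Krt18 (7.84 to 8.88) were present in every library, while Epcam and Krt19 did not exceed 5.30 and 5.48 and reached the lowest value in some libraries. Leukocyte genes were also read, with Ptprc, which encodes CD45, between 9.65 and 12.07. In such bulk samples fewer cells of a type and less RNA per cell cannot be told apart.

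Per kilobase of coding sequence, on the same log2 scale, the mean level over the 14 libraries had a median of 11.91 over the 46 large-subunit genes and of 11.95 over the 31 small-subunit genes. The highest level per kilobase was that of Rpl13a at 15, followed by Rpl41 at 14.83, Rpl26 at 14.67, the stalk protein gene Rplp1 at 14.53 and Rpsa at 14. Rpl41 encodes the smallest ribosomal protein, with 75 coding bases, for which a level per kilobase is the least certain. The lowest were Rpl27 at 9.32, Rps13 at 9.36 and Rpl37 at 9.45. Genes whose products are nearly all needed in equal copies thus had mRNA levels per kilobase from 9.32 to 15 log2 units. Reads shared with copies can add to this spread. So can the division by coding length alone, which leaves out the untranslated parts of each mRNA.

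No ribosomal protein gene passed the test in any comparison. In limma's moderated test with Benjamini-Hochberg adjustment over 13711 genes, 0 of the 82 members and 0 of all genes (percentage called 0 in each direction) passed the threshold of 0.05 in any of 6 comparisons. These were MYCi975, TMP195 and Combo against Vehicle, Combo against each single agent, and the interaction, which is the Combo minus TMP195 difference less the MYCi975 minus Vehicle difference. At an unadjusted p under 0.05, 1 member passed in 1 comparison (Rplp0, Combo against MYCi975, where 3.14% of all genes passed as higher and 5.03% as lower). The 95% interval of a canonical member's difference was 1.02 log2 units wide at the median for MYCi975 against Vehicle and 1.10 for TMP195 and for Combo against Vehicle, so a difference smaller than the arms of that interval could not be told from none at this spread.

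What the members did show was a shared level that varied between libraries within each arm. The canonical mean is the mean over the 77 genes after each was centred on its own mean over the 14 libraries. It was 0.11, 0.47 and -0.42 in the Combo libraries and -0.21, -0.53, 0.02 and 0.35 in the MYCi975 libraries. The TMP195 libraries had -0.18, 0.27 and -0.13, and the Vehicle libraries had -0.16, 0.46, -0.12 and 0.08. All 4 arms overlapped, and the span within Combo (0.89) and within MYCi975 (0.88) was nearly that of all libraries (0.99, from MYCi975 replicate 2 to Combo replicate 2). The arm means were 0.05 ± 0.45 in Combo (SD, n = 3), -0.09 ± 0.37 in MYCi975 (n = 4), -0.01 ± 0.24 in TMP195 (n = 3) and 0.07 ± 0.28 in Vehicle (n = 4), and differences between arms held 4.86% of the variance of the canonical mean.

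**Figure D1:**
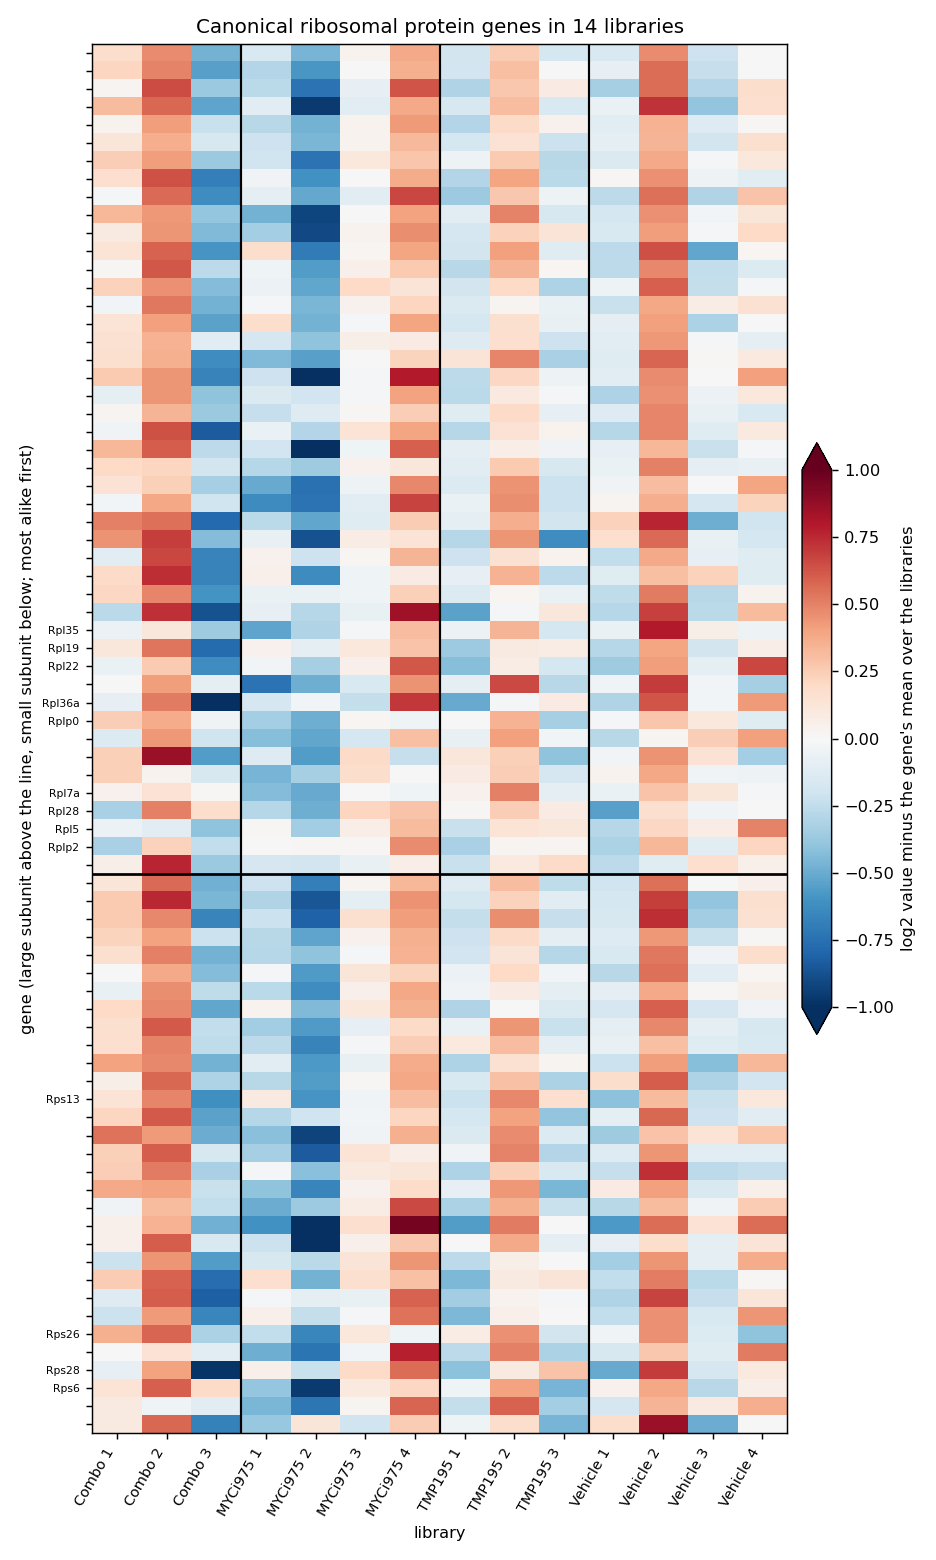
Log2 value of each of the 77 canonical genes minus its mean over the 14 libraries (colour, in log2 units, saturating at 1 either way), with libraries in columns grouped by arm and genes in rows (labels mark the canonical genes named for the smallest p in a comparison), large subunit above the line and small subunit below, the most alike first. Whole columns share a colour: Combo 2, MYCi975 4, TMP195 2 and Vehicle 2 are high, and Combo 3 and MYCi975 2 are low.

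Nearly every gene followed. In Combo replicate 2, 75 of the 77 canonical genes lay above their own mean, in MYCi975 replicate 4 73, in TMP195 replicate 2 75 and in Vehicle replicate 2 76. In Combo replicate 3 only 3 did so, and in MYCi975 replicate 2 only 2. The lowest value of a gene fell in MYCi975 replicate 2 for 42 genes and in Combo replicate 3 for 29. Its highest value fell in Combo replicate 2 for 32 genes, in Vehicle replicate 2 for 24 and in MYCi975 replicate 4 for 14. Each arm thus held at least 1 library in which the genes stood high, and the lowest libraries belonged to Combo and MYCi975.

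The subunits moved as 1 block. The large-subunit mean was 0.09, 0.46 and -0.43 in the Combo libraries and the small-subunit mean 0.13, 0.48 and -0.41. In the MYCi975 libraries the large-subunit mean was -0.20, -0.50, 0.00 and 0.34 and the small-subunit mean -0.23, -0.57, 0.04 and 0.37. The TMP195 libraries gave -0.17, 0.25 and -0.11 for the large subunit and -0.19, 0.29 and -0.15 for the small. In the Vehicle libraries the large subunit gave -0.15, 0.44, -0.10 and 0.07 and the small subunit -0.17, 0.49, -0.16 and 0.09. The large-minus-small difference stayed between -0.05 and 0.07 in the 14 libraries, a range of 0.12 against 0.96 for the large-subunit mean and 1.06 for the small-subunit mean.

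**Figure D2:**
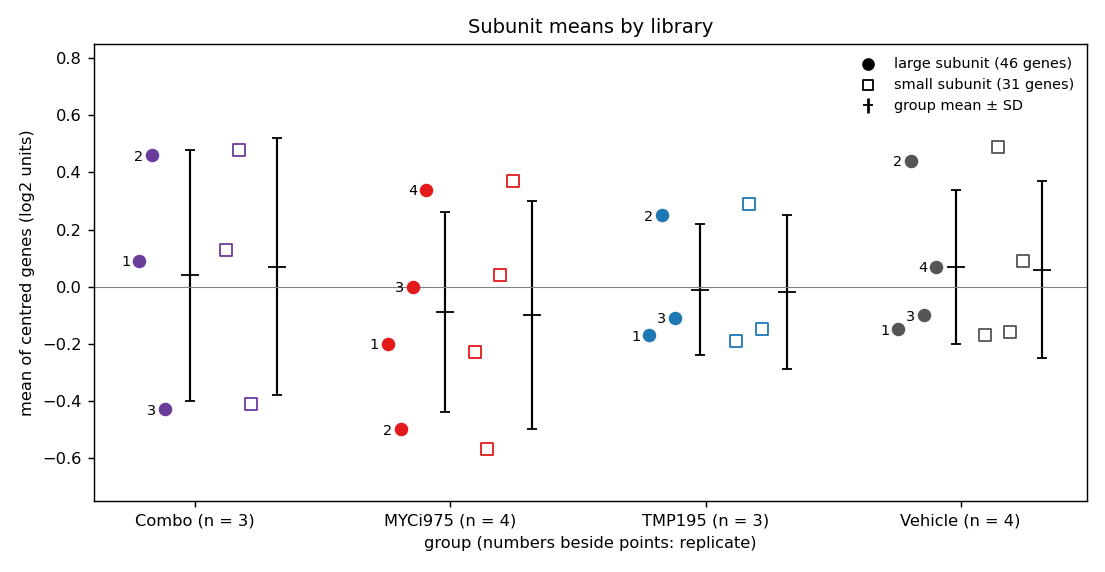
Mean over the centred genes of the large subunit (filled circles, 46 genes) and small subunit (open squares, 31 genes) in each library, in log2 units, by arm, with the arm mean ± SD beside the points and the replicate number beside the circles. The 2 subunits give the same picture in every library, and the arms overlap, with libraries from -0.57 to 0.49.

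The likeness of single genes was measured by the Pearson correlation over the 14 libraries of each canonical gene with the mean of the other 76. It is a description, since the points share their libraries and whatever scaled each library. The median r was 0.88 (lowest 0.61, highest 0.99), and 57 of the 77 genes (74.0%) had an r above 0.8. Of the 13634 other tested genes, 66 (0.484%) had an r above 0.8 with the canonical mean, and their median was -0.01. Over all 2926 pairs of canonical genes the median r was 0.76 and the lowest 0.05. The median was 0.74 within the large subunit, 0.79 within the small subunit and 0.78 between subunits. Differences between arms held a median of 9.03% of a canonical gene's variance, against 20.2% for the other tested genes. The count above 0.8 was 64 when each arm was centred on its own mean and 57 when MYCi975 replicate 2 and Combo replicate 2 were left out, where the lowest r was 0.36. With quantile normalization it was 51 (66.2%), against 89 of the other genes (0.653%).

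Among the genes closest to the rest were Rps20 and Rpl9 (both r 0.98). Rps20, a small-subunit protein gene, had 10.52, 10.97 and 9.92 in Combo, 10.19, 9.72, 10.43 and 10.73 in MYCi975, 10.27, 10.71 and 10.15 in TMP195, and 10.20, 10.95, 10.40 and 10.45 in Vehicle. The arms overlap, and Rps20 was nearly equally high in the second Combo library and the second Vehicle library.

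Among canonical genes the widest ranges were those of Rpl39 (2.05) and Rps27a (2.04). Rps27a encodes a small-subunit protein made as a fusion with ubiquitin. Its values were 12.04, 12.34 and 11.51 in Combo, 11.39, 10.91, 12.16 and 12.95 in MYCi975, 11.43, 12.51 and 11.99 in TMP195, and 11.42, 12.55, 12.14 and 12.55 in Vehicle. Both the lowest and the highest value belonged to MYCi975. Rpl39, at the exit tunnel of the large subunit, had 10.39, 10.57 and 9.46 in Combo, 9.92, 8.87, 10.12 and 10.92 in MYCi975, 9.87, 10.34 and 10.08 in TMP195, and 10.02, 10.60, 10.13 and 10.54 in Vehicle, again with both extremes in MYCi975. The narrowest range of a canonical gene was that of the stalk protein gene Rplp2 (0.81).

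The amplitude varied with gene length more than the likeness did. The slope of a gene on the mean of the others had a median of 1.12 over the 9 genes with at most 300 coding bases, 1.04 over the 46 genes above that and up to 600 and 0.88 over the 22 longer genes. The Spearman correlation with coding length over the 77 genes was -0.39 for the slope and -0.01 for r, as descriptions.

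The least alike canonical genes were all of the large subunit. Rpl11 and Rpl5 had an r of 0.61 and 0.62, and Rplp2 and Rpl28 of 0.62, followed by Rpl7a (0.66) and Rpl12 (0.68). The first pair are the 5S RNA-binding proteins. Rpl11 had 8.93, 9.63 and 8.5 in Combo, 8.70, 8.69, 8.80 and 8.94 in MYCi975, 8.65, 8.97 and 9.06 in TMP195, and 8.61, 8.75, 9.04 and 8.92 in Vehicle. Its peak in Combo replicate 2 matched the other members, but in Vehicle replicate 2, where 76 genes lay above their mean, it did not stand high. Rpl5 had 9.45, 9.40 and 9.10 in Combo, 9.52, 9.16, 9.57 and 9.82 in MYCi975, 9.28, 9.64 and 9.62 in TMP195, and 9.22, 9.71, 9.58 and 10 in Vehicle, with the highest value in Vehicle replicate 4. The 13 members with the pyrimidine run at the annotated start had a median r of 0.87 (0.62 to 0.94). The 44 without it at that place had 0.86 (0.61 to 0.98), so the ranges overlap. Since an annotated start can lie some bases off, this split cannot separate members with a tract from members without one. A link between the tract and likeness was not tested. Rpl28 and Rplp2 hold the run at the annotated start and were among the least alike.

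Smaller groups of members were read in the same way. The 3 genes of the stalk of the large subunit, which recruits the elongation factors (Rplp0, Rplp1 and Rplp2), had library means from -0.41 in MYCi975 replicate 2 to 0.34 in Combo replicate 2 (r 0.98 with the canonical mean). Rpl5 and Rpl11 together ranged from -0.39 in Combo replicate 3 to 0.33 in Combo replicate 2 (r 0.76). The 4 X-linked members, Rpl10, Rpl36a, Rpl39 and Rps4x, had the widest range, 1.30, from -0.69 in Combo replicate 3 to 0.61 in Vehicle replicate 2 (r 0.97). The 9 members mutated in Diamond-Blackfan anaemia in humans, Rps19 among them, ranged over 0.89 (r 0.99). These groups are parts of the canonical mean they are compared with, so a high r is built in to some degree.

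**Figure D3:**
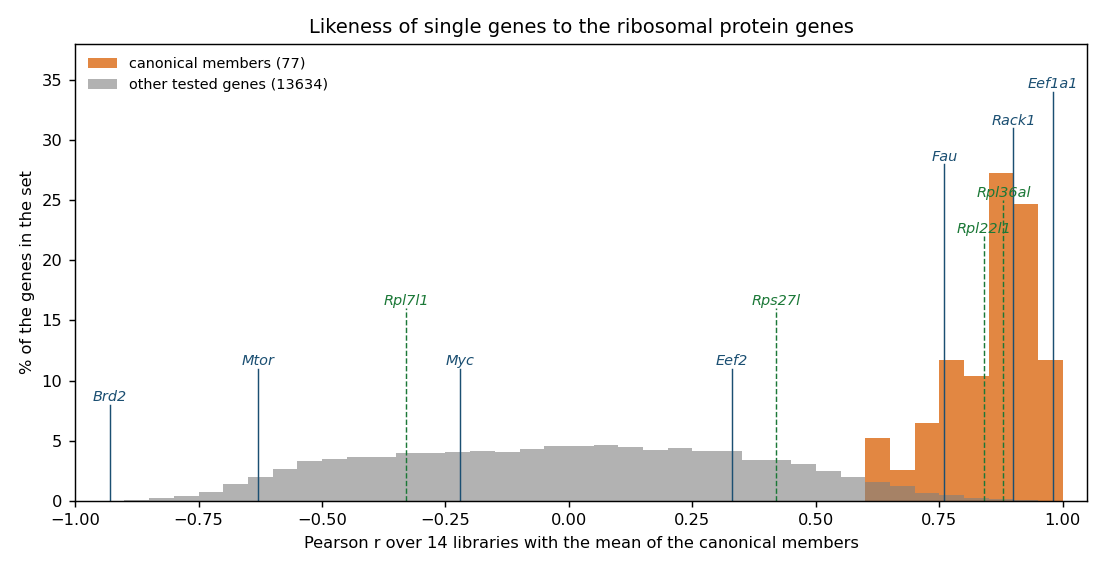
Pearson r over the 14 libraries with the mean of the canonical members (horizontal axis), as the percentage of the 77 canonical members (each against the mean of the others) and of the 13634 other tested genes in bins, with lines at named non-members (solid) and paralogues (dashed; the height of a line has no meaning). Canonical members lie at 0.61 and above, where each bin holds at most 1.53% (209 genes) of the other tested genes. Rpl7l1 lies at -0.33 and Myc at -0.22.

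Outside the list, the most alike named gene of 11569 candidates was Eef1a1 (r 0.98), the elongation factor that brings aminoacyl-tRNA to the ribosome. It had 15.45, 15.76 and 14.95 in Combo, 15.21, 14.78, 15.36 and 15.61 in MYCi975, 15.25, 15.55 and 15.22 in TMP195, and 15.34, 15.72, 15.27 and 15.35 in Vehicle, with its highest value in Combo replicate 2 and its lowest in MYCi975 replicate 2, as for the canonical mean. Psmb1, a proteasome subunit gene, followed at 0.97, then Nme2 (0.93), the elongation factor subunit gene Eef1g and Asnsd1 (0.91 each), Rack1 and Stbd1 (0.90 each), Btf3 and Hist1h4d (0.88 each) and Ndufa6 (0.87). Fau, which encodes a small-subunit protein made as a fusion and escapes the symbol rule, stood at 0.76. Of the 27 translation factor genes, 6 had an r above 0.8 and 8 were among the 100 most alike genes. Tpt1 stood at 0.86 and Eef1d at 0.84, whereas Eef2 stood at 0.33, Pabpc1 at 0.13 and the helicase gene Eif4a1 at -0.49.

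The lists for other steps of ribosome supply had lower r values. The 12 genes of ribosomal RNA transcription had a median r of 0.12, from -0.74 (Taf1c) to 0.73 (Polr1c). The 10 escorts and importins of new ribosomal proteins had a median of 0.15 and a highest value of 0.54 (Ipo7). Among the 10 regulators the values ran from -0.63 (Mtor) to 0.56 (Rptor), with Myc at -0.22 and Larp1 at -0.03. Myc had 8.98, 9.11 and 9.11 in Combo, 8.97, 9.27, 9.42 and 8.86 in MYCi975, 9, 8.96 and 9.15 in TMP195, and 8.69, 9.05, 9.27 and 8.86 in Vehicle, and its arms overlap. At the opposite end of the scale stood the chromatin reader gene Brd2 (-0.93), then Secisbp2l (-0.92), Tbc1d10b (-0.91), Xab2 (-0.90) and Prdm2 (-0.89). The transcription factor genes Klf6 and Sp1 came further along (-0.86 each).

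Markers of other cells differed between the low libraries. In MYCi975 replicate 2, the library with the lowest canonical mean, the centred mean of the 6 leukocyte markers was 1.18 and that of the 10 neutrophil markers 1.41, the highest of all 14 libraries. In Combo replicate 3, the other low library, the same lists stood at -0.36 and -0.35. None of these leukocyte and neutrophil markers was at the lowest value in any library. The tested skeletal muscle markers stood at 2.25 in MYCi975 replicate 2 and -1.97 in Combo replicate 3, where Myh4 was at the lowest value of the table. The erythroid markers stood at -1.48 and 0.02 in the same 2 libraries. The leukocyte list ranged from -0.83 to -0.36 in Combo, from -0.31 to 1.18 in MYCi975, from -0.19 to 0.72 in TMP195 and from -0.37 to 0.23 in Vehicle. The neutrophil list ranged from -0.62 to -0.35, from -0.34 to 1.41, from -0.18 to 0.43 and from -0.53 to 0.06 in the same arms. Over the 14 libraries the 6 leukocyte markers had r values of -0.64 to -0.40 with the canonical mean. The 10 neutrophil markers had -0.60 to -0.07, and the 6 proliferation markers a median of -0.07. The mitochondrial ribosomal RNA mt-Rnr2 lay between 21.14 (Combo replicate 3) and 23.09 (Vehicle replicate 4). The part of these markers in the shared level was not tested.

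Against Vehicle, MYCi975 gave the largest median difference of the 3 treatments, and no member passed the test. Canonical members were lower in 67 of 77 cases, against 48.3% of all 13711 genes (51.7% were higher). The median difference was -0.15 for the large subunit and -0.18 for the small subunit, against 0.007 for all genes. The members moved together (median r of 0.76 over all pairs), so such counts, here and below, are not of separate observations. No canonical member had an unadjusted p under 0.05, against 1.85% of all genes as higher and 1.49% as lower. The groups overlapped for every member, while 1.03% of all genes stood wholly above and 0.707% wholly below Vehicle. Single libraries moved these values both ways. The count was 41 of 77 without MYCi975 replicate 2 (median -0.02) and 44 without Vehicle replicate 2 (median -0.03). Without MYCi975 replicate 4 it was 76 (median -0.29), and 11 members, of 750 genes in all, had an unadjusted p under 0.05, none of them passing the adjusted test. With library weights the count was 56 and the large-subunit median -0.08. The smallest p in the lower direction was that of Rpl7a, a large-subunit protein gene. It had 11.24, 11.17, 11.68 and 11.63 in MYCi975 and 11.61, 11.96, 11.80 and 11.66 in Vehicle, a difference of -0.33 ± 0.16 (SE) with an adjusted p of 0.999 in limma with Benjamini-Hochberg adjustment. Rplp0, the base of the stalk, had 12.43, 12.28, 12.79 and 12.73 in MYCi975 and 12.76, 13.05, 12.88 and 12.65 in Vehicle, a difference of -0.28 ± 0.17. In the higher direction Rplp2 and Rpl19 each had a difference of 0.09, smaller than their standard errors of 0.18 and 0.23. Beside these values, all 10 neutrophil markers were higher in MYCi975 than in Vehicle, with a median difference of 0.56, as were all 6 leukocyte markers, with a median of 0.24, and their part in the member values was not tested.

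For TMP195 the shift was smaller. Canonical members were lower than in Vehicle in 63 of 77 cases (49.2% of all genes were lower and 50.8% higher), with a median of -0.07 for the large and -0.09 for the small subunit against 0.004 for all genes. None had an unadjusted p under 0.05 (1.47% of all genes as higher and 1.31% as lower). The groups overlapped for every member, whereas 2.4% of all genes stood wholly above and 1.87% wholly below Vehicle. Without Vehicle replicate 2 the count was 24 and the median 0.05, and without TMP195 replicate 1 it was 38 with a median of 0.001, so single libraries turn the direction. Without TMP195 replicate 2 it was 73 with a median of -0.22. With the replicate number as a block over all 4 arms, the count was 39 and the median -0.006. That fit also ties libraries of the other arms, whose numbers were not taken to pair them. Without Vehicle replicate 4, which has no TMP195 library of its number, the count was 63 and the median -0.07. Rpl22 had 10.80, 11.30 and 11.05 in TMP195 and 10.87, 11.65, 11.14 and 11.90 in Vehicle, a difference of -0.34 ± 0.27 (SE), and the X-linked Rpl36a had a difference of -0.32 ± 0.32. In the other direction Rpl28 differed by 0.22 ± 0.22 and Rps13 by 0.20 ± 0.27. The adjusted p was 1 for all 4 in limma with Benjamini-Hochberg adjustment. Beside these values, 9 of 10 neutrophil markers and all 6 leukocyte markers were higher in TMP195 than in Vehicle, with median differences of 0.40 and 0.22. All 3 tested skeletal muscle markers were lower, with a median of -1.84. The centred mean of these 3 ran from -1.63 to -0.83 in TMP195 and from -1.82 to 2.80 in Vehicle, so the arms overlapped. Among them Myh4 was at the lowest value of the table in some libraries. The part of these markers in the member values was not tested.

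For Combo against Vehicle the members were evenly split, with 39 of 77 higher and 38 lower (49.7% of all genes were higher and 50.3% lower) and a median of 0.005. None had an unadjusted p under 0.05 (2.08% of all genes as higher and 1.35% as lower). The groups overlapped for every member, against 2.8% of all genes wholly above and 3.27% wholly below. Leaving out 1 library swung the split in either direction: 71 were lower without Combo replicate 2, 7 without Combo replicate 3 and 16 without Vehicle replicate 2. Rpl5 had 9.45, 9.40 and 9.10 in Combo and 9.22, 9.71, 9.58 and 10 in Vehicle, a difference of -0.31 ± 0.19 (SE). Rpl35 differed by -0.28 ± 0.23, Rps26 by 0.24 ± 0.24 and Rpl28 by 0.22 ± 0.22. The adjusted p was 0.992 for all 4 in limma with Benjamini-Hochberg adjustment. All 6 leukocyte and all 10 neutrophil markers were lower in Combo than in Vehicle, with median differences of -0.52 and -0.29. The 3 skeletal muscle markers were lower too, with a median of -1.20. Their centred mean overlapped between the arms, from -1.97 to 0.47 in Combo and from -1.82 to 2.80 in Vehicle. The part of all these markers was not tested.

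**Figure D4:**
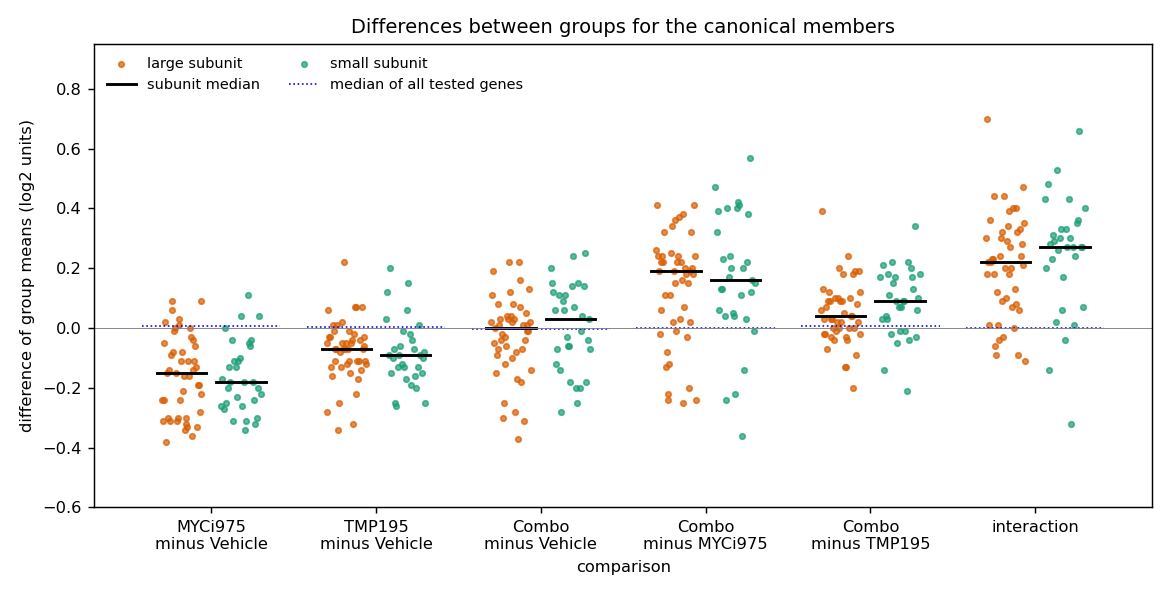
Difference of arm means (log2 units) for each canonical gene of the large subunit (orange) and small subunit (green) in the 6 comparisons, with the subunit medians (black bars) and the median of all tested genes (dotted). The medians for MYCi975 minus Vehicle lie at -0.15 and -0.18 and those for the interaction at 0.22 and 0.27, with all genes near 0; no gene passed the test.

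Set against MYCi975 alone, the Combo arm was higher for 61 of 77 canonical members (50.2% of all genes were higher and 49.8% lower), with a median of 0.19 for the large and 0.16 for the small subunit against 0.001 for all genes. This comparison and that of MYCi975 with Vehicle share the MYCi975 libraries. Without Combo replicate 2 the median was -0.04, with 45 members lower, and without MYCi975 replicate 2 it was 0.03, with 35 lower. It was 0.39 without Combo replicate 3 and 0.30 without MYCi975 replicate 4. There 13 and 8 members had an unadjusted p under 0.05, of 1031 and 1462 genes in all, and none passed the adjusted test. Rplp0 had 13.02, 13.14 and 12.74 in Combo and 12.43, 12.28, 12.79 and 12.73 in MYCi975, a difference of 0.41 ± 0.19 (SE, 95% interval 0.02 to 0.81), with an unadjusted p of 0.0425 and an adjusted p of 0.611 in limma with Benjamini-Hochberg adjustment. Its groups overlap. Rpl7a was the 1 member whose groups did not (3.53% of all genes stood wholly above and 3.97% wholly below), with 11.72, 11.82 and 11.69 in Combo and 11.24, 11.17, 11.68 and 11.63 in MYCi975, a difference of 0.32 ± 0.17 and an adjusted p of 0.621 by the same test. Rpl7a and Rps6 were named for this comparison after their values were seen. Rps6, the substrate of the S6 kinases, had the greatest difference, 0.57, with 13.09, 13.55 and 13.15 in Combo and 12.57, 12, 13.05 and 13.16 in MYCi975, and an adjusted p of 0.611 by the same test. Rplp2 lay in the other direction at -0.24 ± 0.19. Beside these values, all 6 leukocyte and all 10 neutrophil markers were lower in Combo than in MYCi975, with median differences of -0.75 and -0.82. Their part in the member values was not tested.

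Set against TMP195 alone, Combo was higher for 55 of 77 members (51.1% of all genes were higher and 48.9% lower), with medians of 0.04 and 0.09 for the large and small subunit. None had an unadjusted p under 0.05 (1.66% of all genes as higher and 2.74% as lower). No member's groups stood apart, against 5.48% of all genes wholly above and 6.36% wholly below. The median was -0.15 without Combo replicate 2, -0.04 without TMP195 replicate 1, 0.32 without Combo replicate 3 and 0.22 without TMP195 replicate 2, and 0.002 without TMP195 replicate 3. Rps6 differed by 0.34 ± 0.29 (SE), and Rpl5 by -0.20 ± 0.20. All 6 leukocyte and all 10 neutrophil markers were lower in Combo than in TMP195, with median differences of -0.73 and -0.71, and the groups did not overlap for 5 and 6 of them. Their part in the member values was not tested.

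In the interaction 67 of 77 members had a positive value (50.2% of all genes, with 49.8% negative), with a median of 0.22 for the large and 0.27 for the small subunit against 0.001 for all genes. None had an unadjusted p under 0.05 (1.74% of all genes as positive and 3.05% as negative). The 95% interval of a member was 1.56 wide at the median, and the median over canonical members was 0.03 without Combo replicate 2 and 0.08 without MYCi975 replicate 2. It was 0.11 without Vehicle replicate 2, 0.46 without Combo replicate 3, 0.37 without MYCi975 replicate 4 and 0.40 without TMP195 replicate 2. Rplp0 had an interaction of 0.47 ± 0.26 and Rps28 of -0.32 ± 0.44, with adjusted p-values of 0.911 and 0.937 in limma with Benjamini-Hochberg adjustment. All 10 neutrophil and all 6 leukocyte markers had a negative interaction, with medians of -1.24 and -1.02, and 8 and 3 of them had an unadjusted p under 0.05. Their part in the member values was not tested.

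Of the other lists, none held a gene that passed. Against Vehicle, 17 of 27 translation factors were lower in MYCi975, 22 in TMP195 and 17 in Combo, with medians of -0.06, -0.08 and -0.03. Eif3f had 8.71, 8.52, 9.20 and 8.98 in MYCi975 and 9.30, 9.42, 9.18 and 8.89 in Vehicle, and Eif1ax had 8.80, 8.90 and 9.17 in Combo and 8.70, 8.58, 8.84 and 8.08 in Vehicle. Their unadjusted p-values were 0.0459 and 0.0332, and limma with Benjamini-Hochberg adjustment gave 0.999 and 0.992. The 10 escorts and importins were all lower in TMP195 than in Vehicle, with a median of -0.11 and values from -0.34 (Tsr2, the escort of RPS26) to -0.02. In the other arms they were mixed, 3 of 10 lower in MYCi975 and 5 in Combo. Pdcd2, the escort of RPS2, averaged 5.91 ± 0.25 in Combo and 6.21 ± 0.11 in Vehicle (SD, n = 3 and n = 4). The 12 genes of ribosomal RNA transcription were lower in 6 cases in MYCi975, 9 in TMP195 and 5 in Combo. Among them Rrn3 differed by -0.22 in TMP195 and Taf1b by 0.21 in MYCi975, with 95% intervals that include 0. Fau differed from Vehicle by -0.12 in MYCi975, -0.11 in TMP195 and -0.18 in Combo. Myc differed by 0.16 in MYCi975, 0.07 in TMP195 and 0.10 in Combo, with 95% intervals that include 0. Rps6kb2, which encodes an S6 kinase, differed by 0.41 in MYCi975 (adjusted p 0.999 in limma with Benjamini-Hochberg adjustment).

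The paralogues differed in their r with the canonical genes. With its own counterpart over the 14 libraries, r was 0.64 for Rpl22l1, 0.78 for Rpl36al, 0.60 for Rps27l and -0.35 for Rpl7l1. Rpl22l1, which is known to replace RPL22 in the large subunit of some cells, had an r of 0.84 with the canonical genes and the widest range of any member, 2.07. It had 9.18, 9.08 and 8.56 in Combo, 8.48, 7.73, 8.64 and 9.80 in MYCi975, 8.38, 9.59 and 8.48 in TMP195, and 8.91, 9.24, 8.59 and 8.93 in Vehicle, with both extremes in MYCi975. Rpl22 had 11.16, 11.49 and 10.61 in Combo, 11.20, 10.90, 11.28 and 11.85 in MYCi975, 10.80, 11.30 and 11.05 in TMP195, and 10.87, 11.65, 11.14 and 11.90 in Vehicle. Per kilobase of coding sequence the paralogue minus its counterpart ranged from -3.10 to -1.65 log2 units, with a mean of -2.08 ± 0.23 in Combo (SD, n = 3), -2.58 ± 0.46 in MYCi975 (n = 4), -2.17 ± 0.46 in TMP195 (n = 3) and -2.40 ± 0.42 in Vehicle (n = 4). The arms overlap.

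Rpl36al, the intronless counterpart of the X-linked Rpl36a, had an r of 0.88. Its values were 8.12, 8.5 and 7.85 in Combo, 8.15, 7.68, 8.14 and 8.41 in MYCi975, 7.98, 8.43 and 8.30 in TMP195, and 8.03, 8.70, 8.30 and 8.53 in Vehicle. Both genes have 318 coding bases, and the paralogue minus Rpl36a was 0.39 ± 0.45 in Combo, 0.08 ± 0.37 in MYCi975, 0.43 ± 0.14 in TMP195 and 0.26 ± 0.14 in Vehicle. It is the 1 pair in which the paralogue was the higher of the 2 in most libraries.

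Rps27l, which is known as a p53 target in human cells, had an r of 0.42. It had 7.06, 7.30 and 7.14 in Combo, 6.96, 6.75, 7.34 and 7.34 in MYCi975, 7.06, 7.40 and 7.36 in TMP195, and 6.95, 7.11, 7.49 and 7.85 in Vehicle, a range of 1.10. The difference from Rps27, which has the same coding length, ranged from -3.45 to -2.29 log2 units, with Rps27l below in every library. Rpl7l1, a paralogue of Rpl7 known for a role in building the large subunit, did not follow the rest, with an r of -0.33 and a range of 0.68. It had 9.08, 8.88 and 9.15 in Combo, 9.22, 9.16, 9.31 and 9.14 in MYCi975, 8.88, 8.78 and 9.43 in TMP195, and 8.93, 9.08, 9.45 and 9.24 in Vehicle. In MYCi975 replicate 2, where Rpl7 had its lowest value of 12.09, Rpl7l1 stood close to its usual level. Rps19bp1, which is no ribosomal protein, had an r of 0.46 and lay between 5.88 and 6.58.

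**Figure D5:**
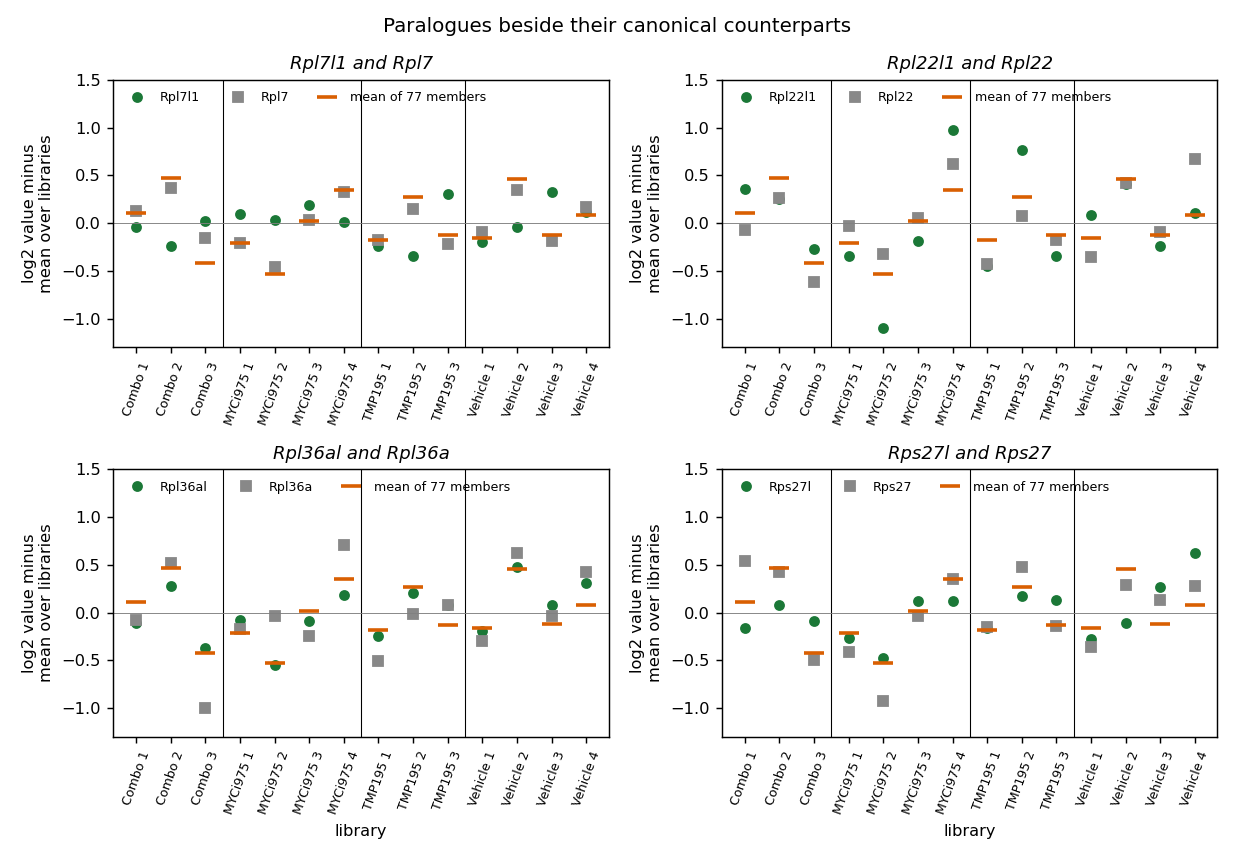
Log2 value minus the gene's mean over the 14 libraries for each paralogue (green circles), its canonical counterpart (grey squares) and the mean of the 77 canonical genes (orange bars), by library and arm. Rpl22l1 and Rpl36al follow the orange bars, while Rpl7l1 stays within a range of 0.68.

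No paralogue passed the test against Vehicle in any arm. In MYCi975 the differences were -0.26 ± 0.35 (SE) for Rpl22l1, -0.29 ± 0.19 for Rpl36al, -0.25 ± 0.19 for Rps27l and 0.03 ± 0.15 for Rpl7l1. In TMP195 they were -0.10 ± 0.38, -0.15 ± 0.21, -0.07 ± 0.21 and -0.15 ± 0.16 in the same order, and in Combo 0.02 ± 0.38, -0.23 ± 0.21, -0.18 ± 0.21 and -0.14 ± 0.16. The adjusted p was at least 0.992 for each in limma with Benjamini-Hochberg adjustment. With the replicate block the TMP195 differences of Rpl22l1 and Rps27l were 0.09 and 0.05. The further paralogues Rpl3l, Rpl10l, Rpl39l and Rps27rt were not among the 97 genes with such a symbol, so no values could be read under these names.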

How the data were processed

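RNA from LLC1 tumours was sequenced in 14 libraries. The authors deposited 1 table of log2-scale values after a variance-stabilising transformation; per the submitters' processing notes, Salmon (version not given) was used. Those notes name the build hg38, whereas the gene identifiers are mouse, so the build behind the values is uncertain. Of the identifiers, 20264 (95.8%) were paired with a symbol. The lowest value, 4.047, was reached by 880 to 2954 genes in a library. No whole-read steps were found, so no count test was run and the depth is unknown.

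Genes with a mean more than 1 log2 unit above the lowest value were tested, 13711 in all. A linear model over the 4 arms was fitted with limma 3.58.1 (R 4.3.3; intensity trend; 10 residual and 5.275 prior degrees of freedom), with Benjamini-Hochberg adjustment over all tested genes and a threshold of 0.05, 2-sided. The fit was tested on simulated data. Descriptions used Python 3.11.15, numpy 2.4.6 and pandas 2.3.3, with coding lengths and gene types from GENCODE M21 and starts from RefSeq.

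The members and lists were chosen with earlier results of these data known. The genes named were the paralogues, Rps19bp1, for each arm against Vehicle the 2 canonical members of smallest p upwards and downwards (1 each way in the other comparisons), the 10 most alike non-members, up to 2 genes of each other list, and Myc. Others that are named serve as examples of extremes, chosen after their values were seen. Alternatives were other filters, no trend, robust moderation, library weights, median centring, quantile normalization, only the libraries compared, a replicate block and leaving out each library. The counts of members lower under each alternative, and the likeness by ranks, with arms centred or without MYCi975 replicate 2 and Combo replicate 2, were added after seeing the data. Some genes that the rule or the ranking picks are not reported here. Replicate numbers come from the titles. Same-numbered libraries of TMP195 and Vehicle deviated together in all 3 pairs (correlations of 0.11, 0.17 and 0.21), a hint from the data at pairing, and in no other pair of arms did every pair exceed 0.1.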

Additional observations from a re-analysis of the deposited data

Results flagged for a closer look

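Within an arm of 4 libraries, 2 values stood far from the other 3. Rplp2 was at 12.47 in MYCi975 replicate 4, with the other MYCi975 libraries at 11.99, 12.01 and 12.01. Rpl35 was at 12.72 in Vehicle replicate 2, with the other Vehicle libraries at 11.86, 11.88 and 11.99. In all, 42 such groups were examined, and chance marks about 1 in 20. In both libraries most canonical members were high, 73 and 76 of 77 lying above their own mean.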

How the results depend on the processing

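No member and no other gene passed the adjusted test under any alternative. The counts of canonical members lower were 67 for MYCi975, 63 for TMP195 and 38 for Combo against Vehicle, 16 for Combo against MYCi975, 22 for Combo against TMP195, and 10 negative in the interaction. With library weights the count was 56 for MYCi975 and 19 for Combo against Vehicle and 12 for Combo against TMP195, and with quantile normalization 6 in the interaction. Leaving out 1 library gave 41 to 77 for MYCi975, 24 to 73 for TMP195 and 7 to 71 for Combo against Vehicle, 2 to 45 for Combo against MYCi975, 2 to 66 for Combo against TMP195 and 2 to 30 in the interaction. The cause was not tested.

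Over all 19 same-numbered pairs the correlation of deviations ran from -0.30 to 0.21, with 6 over 0.1, and 6 of 14 libraries correlated best with their own number. Single pairs of other arms reached the values of TMP195 and Vehicle, such as 0.21 for replicate 4 of MYCi975 and Vehicle. The numbers were not taken to pair libraries in the main fit, and whether TMP195 and Vehicle are paired stayed unsettled. With a replicate block the count of canonical members lower was 39 for TMP195 and 19 for Combo against Vehicle, no call changed, and the TMP195 differences of Rps27l and Rpl22l1 were 0.05 and 0.09, against -0.07 and -0.10 without it. With quantile normalization the MYCi975 difference of Rpl7l1 was -0.03.

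Leaving out 1 library turned the sign of some small differences. For MYCi975 against Vehicle the range was -0.02 to 0.20 for Rplp2, -0.003 to 0.22 for Rpl19, -0.63 to 0.05 for Rpl22l1 and -0.05 to 0.12 for Rpl7l1. For TMP195 it was -0.21 to 0.09 for Rps27l and -0.49 to 0.12 for Rpl22l1, for Combo -0.10 to 0.22 for Rpl22l1, and in the interaction -0.63 to 0.06 for Rps28. With 3 or 4 libraries an arm, and depth unknown, small differences could not be resolved.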
